A study of Mus musculus with 4 samples.

Results

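The genes described here are the pericentral Wnt program of the mouse liver, 10 genes chosen by their symbol from a table of 13903 genes. They are Glul, Axin2, Lgr5, Rnf43, Znrf3, Tbx3, Lect2, Oat, Rhbg and Slc1a2, and each was listed once and read in every library. Whole-liver mRNA was sequenced from OGT-floxed mice (background C57BL/6J) kept on the CDE diet, a food without choline to which ethionine is added and which damages hepatocytes. All 4 groups shared the floxed allele, the diet and an AAV8 vector with the TBG promoter, which is active in hepatocytes. The OGT-KO label stands for AAV8-TBG-CRE, a vector that makes Cre recombinase in hepatocytes to cut the floxed allele, and the control label for AAV8-TBG-eGFP, a vector that makes a fluorescent protein instead. OGT is the enzyme that adds O-GlcNAc to proteins. The livers came from mice at the end of the diet (no recovery) or after a 7 day recovery. Each group was 1 library of RNA pooled equally over 3 mice, and the sources used here give neither sex nor age. There is therefore no replicate check, and no p-value is given.

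Hepatocytes around the central vein receive Wnt ligands and R-spondin from the endothelium of that vein. The signal stabilizes β-catenin, which enters the nucleus, binds TCF/LEF factors and switches on a set of genes. Hepatocytes around the portal tract receive little of this signal and carry out other reactions, so the liver lobule is divided into zones. Some of the genes listed above are enzymes and transporters that mark pericentral hepatocytes. Others are feedback regulators that Wnt signaling induces in many tissues, and 1 is a transcription factor.

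Values are in CPM, the reads of a gene scaled to a library total of 1000000. Intervals are 95% exact Clopper-Pearson intervals and cover counting error only. A log2 fold change is the difference of log2(CPM + 1), which understates the change of low genes, and a gene was called higher or lower at a 2-fold difference on that scale among the 12989 genes that averaged 1 CPM or more. All 10 genes passed that filter. The libraries held 19972699 to 22866431 reads. The targeted gene, Ogt, stood at 55.3 CPM under the OGT-KO label against 64.7 under the control label with no recovery, and at 77.7 against 55.7 CPM after 7 days. In CPM as deposited its RNA was thus lower under the OGT-KO label at the first time point and higher at the second, while by the median-ratio scaling described below it was lower at both, with log2 fold changes of -0.93 and -0.20. The reads are summed over the gene and over all cells of the liver, so they do not show whether the floxed part was cut, and the groups are called by their labels throughout. Over all genes tested, the log2 fold change of OGT-KO over control had a median of 0.64 with no recovery and of 0.61 after 7 days. A gene with equal CPM under both labels thus lay below most genes. The 100 genes with the most reads took 34.1% to 34.3% of the reads in the libraries labelled OGT-KO and 42.8% to 45.0% in those labelled control. Values were therefore also scaled by the median ratio of each library to the geometric mean of all 4, which brought the all-gene medians to -0.03 and -0.04.

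Glul and Slc1a2 were far lower in both libraries labelled OGT-KO. Oat was lower with a smaller difference after 7 days, and Tbx3 was lower with a larger one. The feedback regulators Axin2, Rnf43, Znrf3 and Lgr5 and the secreted protein gene Lect2 were not called lower at either time point by the deposited scaling. With no recovery, 0 of the 10 genes were called higher and 3 were called lower, namely Glul, Oat and Slc1a2, where 33.5% of all genes tested were called higher and 4.60% lower. After 7 days 1 was called higher, Lect2, and 3 were called lower, namely Glul, Tbx3 and Slc1a2, where 32.7% of all genes tested were called higher and 3.50% lower. The genes called lower at both times were Glul and Slc1a2, 2 of 10, against 387 of the 12989 genes tested (2.98%). Over the 10 genes the log2 fold change had a median of -0.77 with no recovery and of -0.06 after 7 days. In these bulk samples fewer cells of a type and less RNA per cell cannot be told apart, and summed hepatocyte markers were 1.38-fold lower with no recovery and 1.25-fold lower after 7 days in the libraries labelled OGT-KO. Alb made up most of that sum, and without it, left out after its values were seen, the other 7 markers summed 2.12-fold and 2.02-fold lower.

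**Figure D1:**
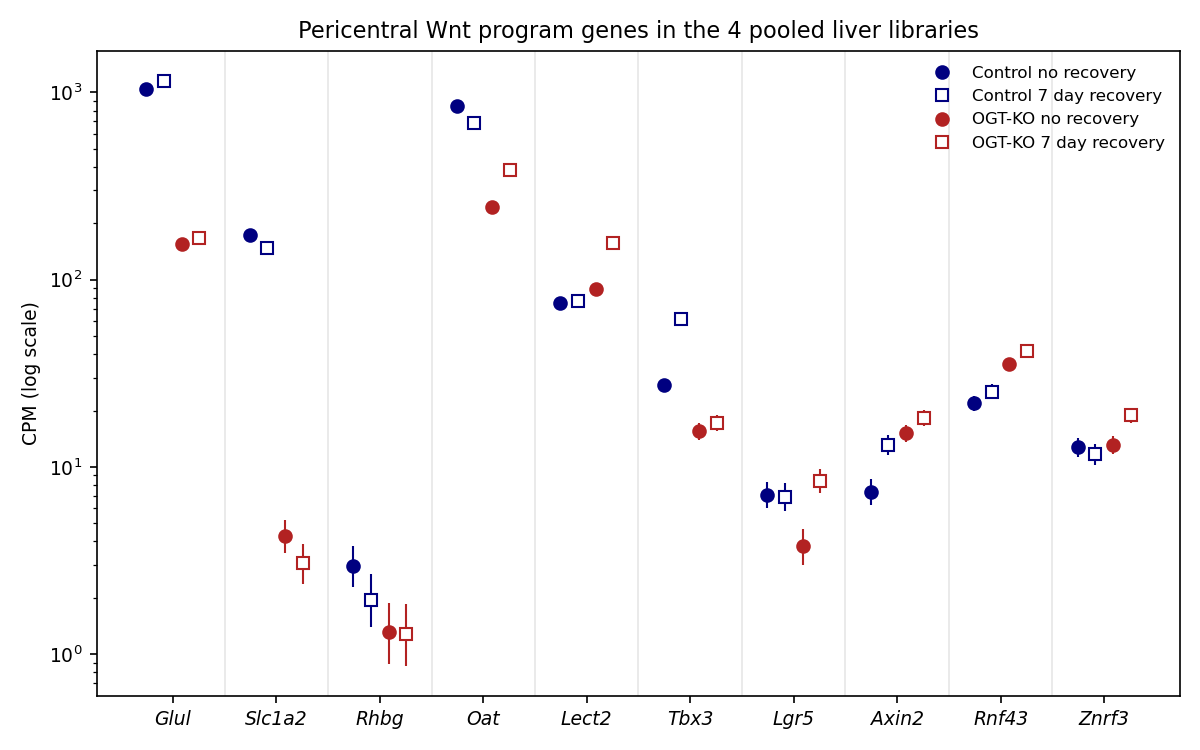
Level of each gene in the 4 pooled liver libraries, in CPM on a log scale. Points are single libraries and bars are 95% exact counting intervals. Glul and Slc1a2 lie far below the control libraries in both libraries labelled OGT-KO, from 1043 and 1150 CPM to 155 and 166 for Glul, while Rnf43 and Axin2 lie above the control of the same time by this scaling (median-ratio scaling turns Rnf43 with no recovery and Axin2 after 7 days).

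Scaling moved the count of genes called. The filter of 1 CPM was applied again to the median-ratio values, and 12871 genes then passed it. By median-ratio scaling with no recovery, 0 of the 10 genes were called higher and 6 lower, namely Glul, Slc1a2, Oat, Tbx3, Lgr5 and Rhbg, beside 17.3% of all genes higher and 12.6% lower. After 7 days 0 were called higher and 4 lower, namely Glul, Slc1a2, Oat and Tbx3, beside 20.0% of all genes higher and 9.69% lower. Their median then stood at -1.30 with no recovery and at -0.57 after 7 days.

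Glul encodes glutamine synthetase, which joins ammonia to glutamate and is found in the layers of hepatocytes nearest the central vein. It had 1043 CPM (interval 1030 to 1057) in the control library with no recovery and 1150 CPM (1135 to 1165) after 7 days. With the OGT-KO label it had 155 CPM (150 to 160) and 166 CPM (161 to 172). Both libraries labelled OGT-KO were low and both control libraries high, with no overlap of the intervals. The level was 6.73-fold lower (6.50 to 6.98) with no recovery and 6.91-fold lower (6.68 to 7.16) after 7 days, a log2 fold change of -2.74 and -2.78, and -3.46 and -3.47 by median-ratio scaling. Over the recovery the level of Glul differed by 0.14 on the log2 scale in control and by 0.10 in OGT-KO, so the difference between the labels was nearly the same size at both times. On the opposite strand Glul overlaps Teddm2, and whether counting used strand is not given in the sources used here. Teddm2 had 55.2 and 48.8 CPM in the control libraries and 7.83 and 9.26 in those labelled OGT-KO, far below Glul in each library, and it was lower with the same label.

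Slc1a2 encodes a glutamate transporter of the plasma membrane, which in the liver is found on the same cells as glutamine synthetase. Its level was 173 CPM (interval 167 to 179) and 148 CPM (142 to 153) in the control libraries. With the OGT-KO label it was 4.29 CPM (3.48 to 5.22) with no recovery and 3.06 CPM (2.38 to 3.87) after 7 days, from 98 and 69 reads. No other gene of the program differed by as much. The level was 40.3-fold lower (33.0 to 49.8) with no recovery and 48.3-fold lower (38.1 to 62.3) after 7 days, and the log2 fold changes were -5.04 and -5.20. After 7 days its log2 level differed from that with no recovery by -0.23 in control and -0.38 in OGT-KO, neither of which reached 2-fold.

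Promoters of 6 of the 10 genes were matched by symbol in RefSeq (GRCm38.p6), namely Glul, Slc1a2, Oat, Rnf43, Axin2 and Lect2. The 250 bases before each start were searched on both strands for CTTTGAT and CTTTGAA, the core letters that TCF/LEF factors bind. Slc1a2 and Lect2 each held 1 match, to CTTTGAT read on the other strand as ATCAAAG, and Glul, Oat, Axin2 and both windows of Rnf43 held none. Of 32851 promoters in RefSeq, 3.21% held CTTTGAT, 4.46% held CTTTGAA and 7.48% held either. The 2 windows printed are the only ones of those searched for these genes that held a match. Slc1a2 had the lowest log2 fold change of the program in OGT-KO over control at both times. Lect2 was the only one called higher in OGT-KO by the deposited scaling, after 7 days. The Slc1a2 window is chr2:102706188-102706437 on the plus strand, with the match at -207 to -201 from the start, and the Lect2 window is chr13:56548539-56548788 on the minus strand, with the match at -32 to -26. Capitals mark the match.
Slc1a2: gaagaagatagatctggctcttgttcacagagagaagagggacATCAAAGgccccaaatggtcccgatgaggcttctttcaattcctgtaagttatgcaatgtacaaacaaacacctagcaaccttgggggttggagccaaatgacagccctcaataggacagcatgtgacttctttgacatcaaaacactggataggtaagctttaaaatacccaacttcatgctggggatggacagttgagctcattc
Lect2: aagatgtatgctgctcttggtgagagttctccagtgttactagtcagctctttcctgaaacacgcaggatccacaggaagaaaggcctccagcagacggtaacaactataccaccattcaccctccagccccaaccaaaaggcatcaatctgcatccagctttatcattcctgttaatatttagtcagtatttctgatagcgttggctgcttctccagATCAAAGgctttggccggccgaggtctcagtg
In GENCODE M21, 2 of the 12 Slc1a2 transcripts start at the base that follows the window and 7 start upstream of it, while the nearest Lect2 start is 36 bases away. The windows cover 1 start each, and a match is a description of the letters only.

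Oat encodes ornithine aminotransferase, a mitochondrial enzyme that turns ornithine toward glutamate. Its level was 846 CPM (interval 833 to 858) and 685 CPM (673 to 696) in the control libraries, and 244 CPM (238 to 251) and 385 CPM (377 to 394) in those labelled OGT-KO. Both OGT-KO libraries were below both control libraries, and the gap was narrower after 7 days. It was 3.46-fold lower (3.36 to 3.57) with no recovery and 1.78-fold lower (1.73 to 1.83) after 7 days, log2 fold changes of -1.79 and -0.83. The 7 day value passed 2-fold only by another scaling, at -1.51 with median-ratio scaling and -1.31 with upper-quartile scaling. Oat was the only gene of the program that moved in opposite directions over the recovery with both intervals clear of 1, by -0.30 in control and 0.66 in OGT-KO on the log2 scale. On the same strand it overlaps Fgfr2, which had 38.5 and 36.8 CPM in the control libraries and 76.8 and 126 in those labelled OGT-KO, so Fgfr2 differed in the other direction.

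Rhbg encodes an ammonium transporter of the Rhesus protein family and had the fewest reads of the 10 genes in all 4 libraries. It had 63 and 39 reads in the control libraries, or 2.96 and 1.95 CPM. Under the OGT-KO label it had 30 and 29 reads, or 1.31 and 1.29 CPM. Its level with no recovery was 2.26-fold lower (1.44 to 3.61), which the added 1 CPM shrank to a log2 fold change of -0.78. After 7 days it was 1.52-fold lower, and the interval of the deposited CPM ratio included 1 (0.916 to 2.55). By median-ratio scaling the log2 fold changes were -1.24 and -0.79, so the size of the difference depended on the scaling. On the same strand Rhbg overlaps Gm38392, a protein-coding gene without a deposited value. How reads in the shared part were counted is not given in the sources used here.

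Lect2 encodes a chemotactic protein that hepatocytes secrete, and is a known β-catenin target in the liver. It had 75.3 and 76.7 CPM in the control libraries, against 89.5 and 158 CPM in those labelled OGT-KO. The 3 libraries other than OGT-KO after 7 days lay within 1.19-fold of each other, and that library stood above them. It was 2.06-fold higher (1.94 to 2.19) after 7 days, at a log2 fold change of 1.03, just past 2-fold, and 1.19-fold higher (1.11 to 1.27) with no recovery. By median-ratio scaling these became 0.35 after 7 days and -0.46 with no recovery, so the first was no longer called and the direction of the second turned.

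Tbx3, a T-box transcription factor, was the gene that changed most over the recovery in control. It had 27.3 CPM (interval 25.2 to 29.6) in control with no recovery and 61.8 CPM (58.4 to 65.3) after 7 days. In OGT-KO it had 15.5 CPM (14.0 to 17.2) and 17.2 CPM (15.6 to 19.0). The control library after 7 days was the highest, and the 2 libraries labelled OGT-KO overlapped each other and lay below both controls. Relative to control, the level was 1.76-fold lower (1.54 to 2.01) with no recovery and 3.58-fold lower (3.20 to 4.03) after 7 days, log2 fold changes of -0.78 and -1.78. Much of the larger difference after 7 days lay in the control library, where the level was 2.26-fold higher (2.05 to 2.50) than with no recovery, against 1.11-fold (0.959 to 1.29) in OGT-KO.

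**Figure D2:**
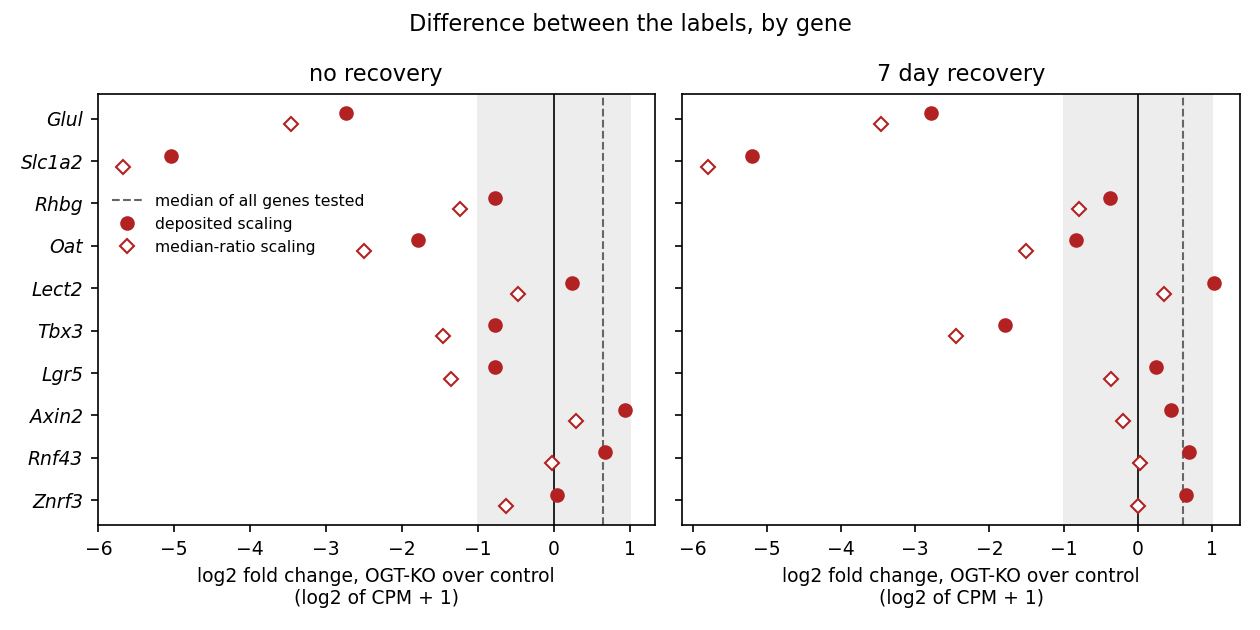
Log2 fold change of OGT-KO over control for each gene, on the log2(CPM + 1) scale, with no recovery (left) and after a 7 day recovery (right). Filled points use the deposited scaling, open diamonds median-ratio scaling, the dashed line is the median of all genes tested (0.64 and 0.61) and the shaded band is within 2-fold. Slc1a2 at -5.04 and -5.20 and Glul at -2.74 and -2.78 lie farthest left, and Axin2, Rnf43 and Znrf3 lie near 0 by median-ratio scaling after 7 days.

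The feedback regulators act on the pathway itself. Axin2 belongs to the complex that destroys β-catenin, Rnf43 and Znrf3 are ubiquitin ligases that remove Wnt receptors from the membrane, and Lgr5 is an R-spondin receptor that holds those ligases in check. Axin2 had 7.39 CPM (interval 6.28 to 8.64) and 13.1 CPM (11.6 to 14.8) in the control libraries, and 15.1 (13.6 to 16.8) and 18.3 (16.6 to 20.2) in those labelled OGT-KO. Both OGT-KO levels were above the control level of the same time, though the interval of OGT-KO with no recovery overlapped that of control after 7 days. The ratio was 2.05-fold higher (1.69 to 2.49) with no recovery and 1.40-fold higher (1.19 to 1.63) after 7 days. On the log2 scale these were 0.94 and 0.45, and 0.29 and -0.19 by median-ratio scaling, so that the direction after 7 days depended on the scaling.

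Rnf43 had 21.9 and 25.3 CPM in the control libraries, and 35.5 and 41.5 CPM in those labelled OGT-KO. In CPM it was 1.62-fold higher (1.44 to 1.82) with no recovery, a direction that median-ratio scaling turned, and 1.64-fold higher (1.47 to 1.83) after 7 days. The log2 fold changes, 0.67 and 0.69, were close to the medians of all genes, and by median-ratio scaling they were -0.02 and 0.03. Rnf43 was thus placed with the bulk of genes at both times.

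Znrf3 had 12.7 and 11.7 CPM in the control libraries, and 13.1 and 18.9 CPM in those labelled OGT-KO. The first 3 of these levels had overlapping intervals, and OGT-KO after 7 days was the highest. The difference between labels was 1.03-fold (0.870 to 1.22) with no recovery and 1.62-fold higher (1.38 to 1.91) after 7 days. The log2 fold change was 0.04 with no recovery, which turned to -0.63 by median-ratio scaling, and 0.65 after 7 days, which became 0.01.

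Lgr5 had 7.10 CPM (interval 6.02 to 8.33) and 6.91 CPM (5.80 to 8.16) in the control libraries. In those labelled OGT-KO it had 3.76 CPM (3.01 to 4.64) with no recovery and 8.42 CPM (7.26 to 9.71) after 7 days. Only OGT-KO with no recovery stood apart, below the other 3 libraries, whose intervals overlapped. It was 1.89-fold lower (1.44 to 2.49) with no recovery, a log2 fold change of -0.77, and after 7 days the ratio of 1.22 (0.974 to 1.53) included 1. The log2 fold change after 7 days, 0.25, turned to -0.35 by median-ratio scaling.

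Over the recovery few of the 10 genes changed 2-fold. In control 1 was called higher, Tbx3, and 0 lower, where 0.239% of all genes tested were called higher and 1.02% lower. In OGT-KO 0 were called in either direction, where 1.31% of all genes were called higher and 0.708% lower. The median log2 fold change over the 10 genes was -0.00 in control and 0.24 in OGT-KO, beside -0.05 and -0.02 over all genes. Lgr5 was nearest to the threshold in OGT-KO, with a CPM ratio of 2.24 (1.73 to 2.92) and a log2 fold change of 0.98. In the library labelled OGT-KO the levels of Lgr5, Lect2, Oat and Znrf3 were higher after 7 days by 0.98, 0.81, 0.66 and 0.49 on the log2 scale, whereas in control these genes moved by -0.03, 0.03, -0.30 and -0.12. Tbx3 and Axin2 had the reverse order, with 1.15 and 0.75 in control and 0.14 and 0.26 in OGT-KO. With 1 library per group the difference between the labels in these changes was not tested.

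**Figure D3:**
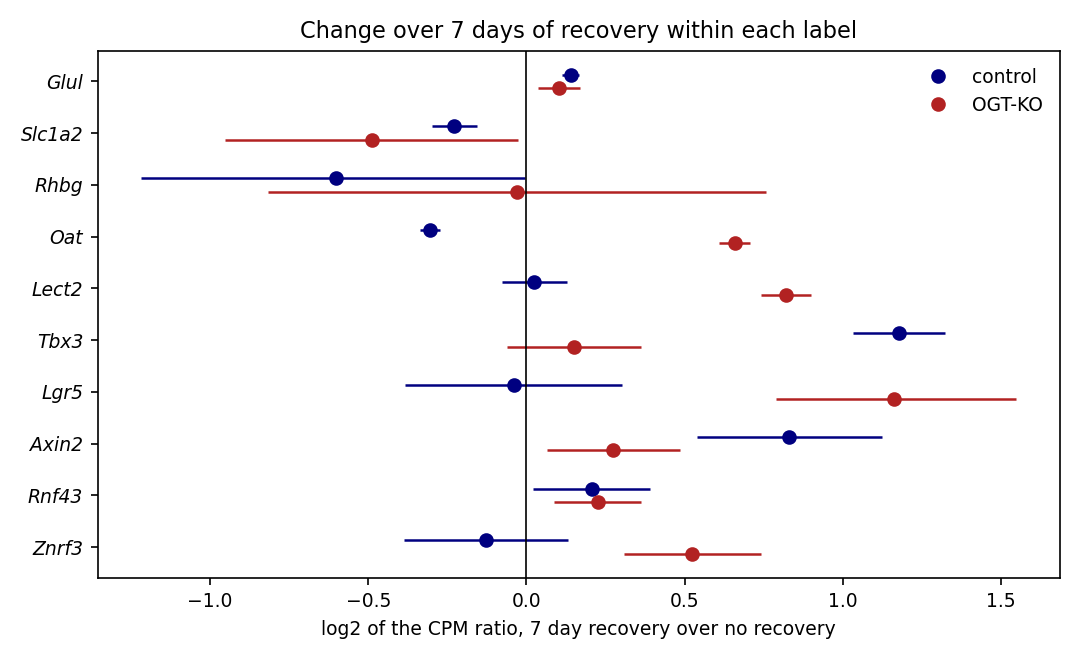
Change of each gene over 7 days of recovery, as the log2 of the ratio of CPM after 7 days to CPM with no recovery, in control (blue) and OGT-KO (red). Bars are 95% exact counting intervals of the ratio. Tbx3 is farthest right in control, at a CPM ratio of 2.26, and Lgr5 in OGT-KO, at a ratio of 2.24, while Glul stays close to 0 in both.

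Levels of different genes were compared only per kilobase of exon, with exon lengths from GENCODE M21. In control with no recovery Oat (358 CPM per kilobase) and Glul (314) were highest, followed by Lect2 (82.0) and Slc1a2 (13.2), and the other genes were between 0.692 for Lgr5 and 4.13 for Tbx3. In OGT-KO with no recovery Oat (103) and Lect2 (97.4) led, and Glul stood at 46.6 CPM per kilobase. Slc1a2 held rank 4 of 10 in both control libraries and rank 10 in both libraries labelled OGT-KO, at 0.326 and 0.233 CPM per kilobase. Lect2 held rank 1 in OGT-KO after 7 days, at 172 CPM per kilobase. Among the feedback regulators, Rnf43 had the highest level per kilobase in all 4 libraries, between 3.34 and 6.32.

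Genes whose pattern over the 4 libraries lay nearest to that of Glul were found by the Euclidean distance between log2(CPM + 1) levels centred on their mean, among 8962 other genes that averaged 10 CPM or more. The nearest were Scnn1a, a subunit of the epithelial sodium channel, at a distance of 0.19, then Macrod1, Nox4, Slc30a10 and Ugt2b38, at 0.24 to 0.29. Scnn1a had 50.6 and 52.5 CPM in the control libraries and 5.90 and 5.94 in those labelled OGT-KO. Of the other genes of the program, Oat was at rank 273, Tbx3 at 320 and Slc1a2 at 1043, and none of the 7 with enough reads was among the nearest 100. The nearest 100 are a small part of the 8962 genes. The distance counts the size of the differences as well as their direction. Slc1a2 was low in the same libraries as Glul but by more, at -5.04 and -5.20 against -2.74 and -2.78, so its rank does not show a different direction. Among the nearest 100 were 3 of 17 other pericentral genes and 2 of 18 periportal genes, with the pericentral Cyp2e1 at rank 15 and the periportal Cyp2f2 at rank 24. The points share 4 libraries, and 2 of these carry each label.

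The other zonation genes give a comparison for the low members. Of 17 other pericentral hepatocyte genes, 1 was called higher and 9 lower with no recovery, and 2 higher and 6 lower after 7 days, with medians of -1.43 and -0.61, beside 33.5% and 32.7% of all genes called higher and 4.60% and 3.50% lower. The 6 called lower at both times were Cyp2e1, Cyp27a1, Rgn, Slc16a10, Slc22a3 and Slco1b2. Cyp2e1, a cytochrome P450 that metabolizes ethanol and acetaminophen, had 5235 and 6470 CPM in the control libraries and 586 and 849 in those labelled OGT-KO, log2 fold changes of -3.16 and -2.93. Cyp27a1, a mitochondrial enzyme of bile acid synthesis, had 451 and 511 CPM in control against 109 and 145 in OGT-KO, and Rgn, a calcium-binding lactonase, had 780 and 865 against 114 and 255. Cyp2a5, a P450 known to be induced in liver injury, went the other way, with 649 and 560 CPM in control and 2646 and 1751 in OGT-KO. Reads of Cyp2a5 can be shared with its close paralogs, so its value is uncertain. By median-ratio scaling 1 and 0 of the 17 genes were called higher and 14 and 12 lower. Of all genes, that scaling called 17.3% and 20.0% higher and 12.6% and 9.69% lower.

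Periportal genes were also lower in part. Of 18 periportal hepatocyte genes, 2 were called higher and 5 lower with no recovery, and 3 higher and 4 lower after 7 days, with medians of -0.52 and -0.31, beside the same shares of all genes. Pigr, the receptor that carries IgA into bile, had 1451 and 1343 CPM in control and 43.3 and 117 in OGT-KO, log2 fold changes of -5.04 and -3.51. Cyp2f2 had 2199 and 1854 CPM in control and 392 and 270 in OGT-KO, and Hal, which starts histidine breakdown, had 427 and 417 against 64.1 and 117. Large differences were therefore present among genes of both zones, and no test of a difference between the zones was made. By median-ratio scaling 0 and 1 of the 18 genes were called higher and 12 and 9 lower. The shares of all genes by that scaling were 17.3% and 20.0% higher and 12.6% and 9.69% lower. Cdh1, which encodes E-cadherin and is also made by bile duct cells, had 71.6 and 74.4 CPM in control and 220.0 and 337 in OGT-KO.

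The rest of the pathway was described by lists of its parts. Of 12 genes for ligands, R-spondins and their secretion, 6 were called higher and 0 lower at each time, with medians of 1.0 and 1.09, beside 33.5% and 32.7% of all genes called higher, 4.60% and 3.50% lower, and all-gene medians of 0.64 and 0.61. Wls, which carries Wnt ligands to the cell surface, had 3.86 and 1.75 CPM in control and 31.2 and 31.7 in OGT-KO, and Wnt4 had 1.55 and 1.85 against 44.7 and 16.1. Wnt5a, Wnt7b and Wnt11, each under 10 CPM in mean, were also called higher at both times. The ligands best known from the endothelium of the central vein, Wnt2, Wnt9b and Rspo3, were picked after their values were seen. Wnt2 had 2.96 and 1.65 CPM in control and 4.50 and 3.15 in OGT-KO, Wnt9b had 2.96 and 1.40 against 5.64 and 3.37, and Rspo3 had 4.28 and 3.35 against 8.31 and 9.88. All 3 were higher in OGT-KO at both times by the deposited scaling, but Wnt2 with no recovery was at 0.47 on the log2 scale, below the median of all genes, and at -0.09 by median-ratio scaling. None of the 3 was called lower. By median-ratio scaling 5 genes of this list were called higher at each time, and 1 and 0 lower. That scaling called 17.3% and 20.0% of all genes higher and 12.6% and 9.69% lower.

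Of 13 receptor genes, 3 were called higher with no recovery and 4 after 7 days, with 0 lower and medians of 0.34 and 0.72. These shares of the receptors were below the 33.5% and 32.7% of all genes called higher. Fzd1, a Wnt receptor, had 7.48 and 7.46 CPM in control and 39.4 and 59.0 in OGT-KO, and the co-receptor Lrp5 had 110.0 and 99.0 against 145 and 179, a difference that turned to -0.32 on the log2 scale with no recovery by median-ratio scaling. Lgr4, the R-spondin receptor related to Lgr5, was picked after its values were seen and had 47.6 and 58.2 CPM in control against 25.5 and 35.5 in OGT-KO. Of 16 genes of the β-catenin complex and the TCF/LEF factors, 3 were called higher with no recovery and 5 after 7 days, with 0 lower and medians of 0.66 and 0.54, close to those of all genes, and counts below the same 33.5% and 32.7%. The β-catenin gene itself, Ctnnb1, had 189 and 183 CPM in control and 384 and 395 in OGT-KO, and the casein kinase gene Csnk1a1 had 85.5 and 85.2 against 182 and 172. Both were called higher at both times, but by median-ratio scaling neither was called, with Ctnnb1 at 0.30 and 0.42 and Csnk1a1 at 0.37 and 0.32 on the log2 scale. By that scaling 1 gene of the complex was called higher and 1 lower at each time. Of the receptors 1 was higher and 4 lower with no recovery, and 4 higher and 2 lower after 7 days. Among all genes the same scaling called 17.3% and 20.0% higher and 12.6% and 9.69% lower.

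Of 9 inhibitor genes, 6 were called higher and 0 lower at each time, with medians of 1.41 and 1.90, beside 33.5% and 32.7% of all genes called higher and 4.60% and 3.50% lower. Frzb and Dkk3, placed in this list, encode secreted proteins, and whether Dkk3 inhibits Wnt signaling here was not tested. They had 1.41 and 2.35 CPM in control with no recovery and 21.1 and 27.6 in OGT-KO. After 7 days they had 1.25 and 1.65 against 22.7 and 22.7. Tle3, a co-repressor, had 31.6 and 34.9 CPM in control and 85.9 and 85.3 in OGT-KO. Of 11 other β-catenin target genes, 6 were called higher at each time, 2 were lower with no recovery and 1 was lower after 7 days, with medians of 1.07 and 1.64, beside the same shares of all genes. Ccnd1, which encodes cyclin D1, had 42.5 and 47.3 CPM in control and 251 and 437 in OGT-KO, and Myc had 11.1 and 11.5 against 69.7 and 43.5. Nkd1, a Wnt-induced inhibitor that stands in both lists, had 7.81 and 4.86 CPM in control and 17.5 and 20.8 in OGT-KO. Slc13a3, a dicarboxylate transporter, had 29.2 and 33.0 CPM in control and 94.3 and 105 in OGT-KO. Prodh, which starts proline breakdown, was the only gene of this list called lower at both times, with 171 and 188 CPM in control and 62.1 and 64.7 in OGT-KO. Notum and Sp5, which belong to the same list and were picked after their values were seen, were also lower. Notum, which stands in the inhibitor list too, had 44.1 and 52.2 CPM in control against 22.0 and 32.6 in OGT-KO. Sp5 had 2.68 and 3.20 against 0.262 and 1.51, and was 1 of the 2 targets counted above as lower with no recovery. Sp5 in OGT-KO with no recovery rested on few reads, and its ratio of 0.098 had a counting interval of 0.034 to 0.23. In whole liver, genes known as targets of the same pathway thus lay on both sides, from Slc1a2 and Glul to Ccnd1 and Myc. Which cells these reads came from was not tested. By median-ratio scaling 3 genes of the list of other targets were called higher and 3 lower with no recovery, and 5 and 3 after 7 days. Of the inhibitors 4 and 5 were higher and 2 lower at each time. All-gene shares by that scaling were 17.3% and 20.0% higher and 12.6% and 9.69% lower.

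**Figure D4:**
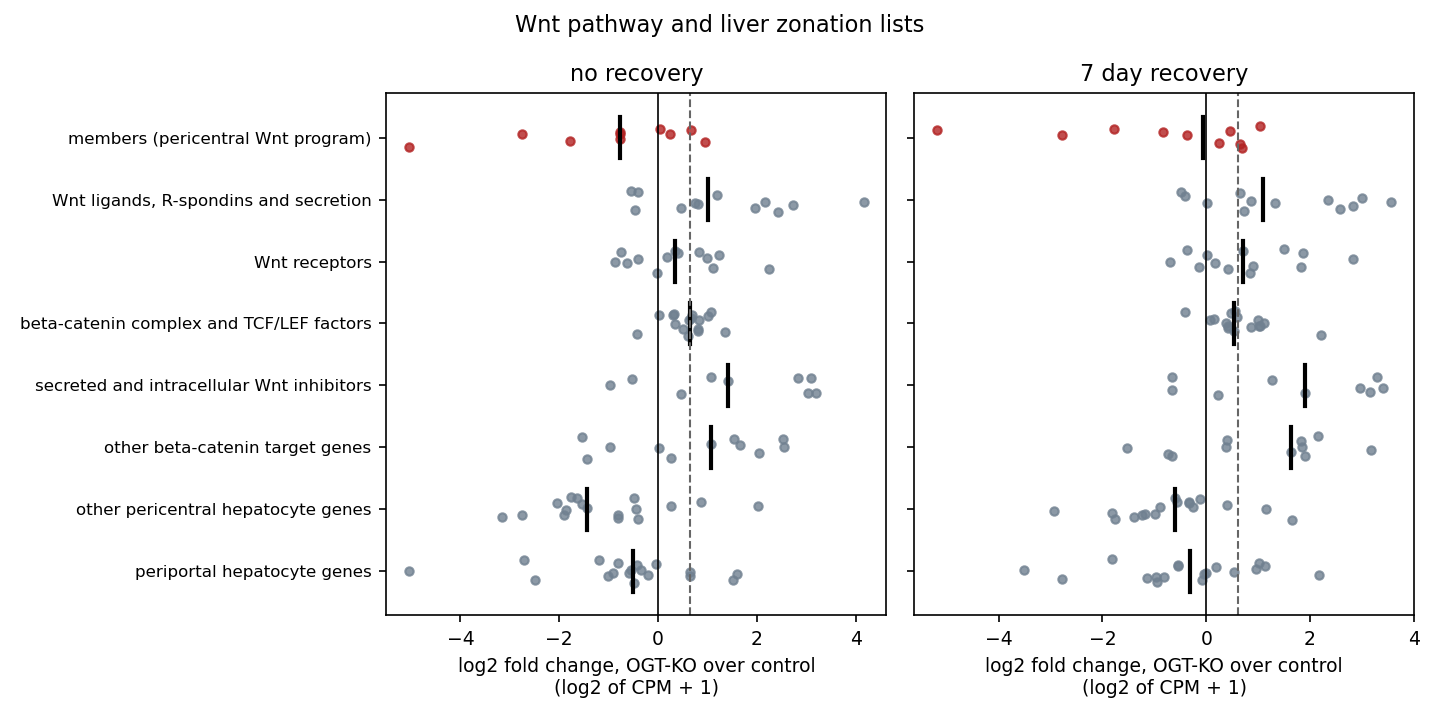
Log2 fold change of OGT-KO over control for each gene tested, by list, on the log2(CPM + 1) scale, with no recovery (left) and after a 7 day recovery (right). Each point is 1 gene, short black bars are list medians and the dashed line is the median of all genes tested. The 10 genes of the program (red) spread from -5.04 to 0.94 and from -5.20 to 1.03, and the lists of other pericentral and periportal genes also have medians below 0.

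Sums of cell-type markers are given in deposited CPM, in which the median of all genes was itself shifted toward OGT-KO, by 0.64 and 0.61. Hepatocyte markers, 8 of 8 in the table, summed to 73933 and 80530 CPM in the control libraries and 53644 and 64435 in those labelled OGT-KO. Alb, the albumin gene, made up 47845 and 54434 CPM of the control sums and 41362 and 51507 of the others, and the remaining 7 markers summed to 26088 and 26095 CPM in control and 12282 and 12928 in OGT-KO. Bile duct and progenitor markers (8 of 8) summed to 57.1 and 74.4 CPM in control and 1281 and 1662 in OGT-KO, and stellate cell and myofibroblast markers (9 of 9) to 171 and 125 against 3158 and 3991. Macrophage markers (8 of 8) summed to 278 and 103 CPM in control and 1079 and 818 in OGT-KO, and those of central vein and sinusoidal endothelium (11 of 11) to 265 and 190.2 against 513 and 376. Lymphocyte markers (3 of 8) summed to 1.65 and 1.10 CPM in control and 4.81 and 2.88 in OGT-KO, and neutrophil markers (3 of 4) to 2.40 and 1.0 against 14.0 and 23.4 CPM in OGT-KO. Of the hepatocyte markers 4 of 8 were called lower with no recovery and 3 of 8 after 7 days, beside 4.60% and 3.50% of all genes. Their medians were -1.11 and -0.68, beside 0.64 and 0.61 over all genes. Median-ratio scaling called 9 of 9 stellate cell and 8 of 8 bile duct markers higher at each time. It also called 6 and 7 of 8 macrophage markers and 2 of 3 neutrophil markers higher. Endothelial markers had deposited medians of 0.83 and 0.88, and 2 of 11 were called higher by that scaling, beside 17.3% and 20.0% of all genes. The 1 lymphocyte marker tested was not called by it at either time. Hnf4a, a transcription factor of hepatocytes picked after its values were seen, had 851 and 864 CPM in control and 335 and 458 in OGT-KO. No marker in the table was at 0 in any library. The part of these markers' cells in the values of the 10 genes was not tested. The same holds for the ligands, receptors and inhibitors, which other liver cells also express, and for the other β-catenin target genes.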

How the data were processed

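Whole-liver mRNA was sequenced, with 1 library for each of 4 groups and RNA of 3 mice pooled in each. The authors deposited CPM for 13903 genes, reads of a gene after each library was brought to a total of 1000000. The submitters' processing notes name STAR, DESeq2 and GRCm39 without roles or versions, and a strand setting is not given in the sources used here. All values were whole multiples of 1 read (100% within 0.1 read), so whole reads were recovered, from 19972699 to 22866431 per library, and a count of 3 reads corresponded to 0.131 to 0.150 CPM. PCR duplicates were not told apart, so intervals cover counting error only. The columns held no comparisons of the authors.

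Fold changes were differences of log2(CPM + 1) among genes that averaged 1 CPM or more, called at 2-fold. As alternatives, the pseudocount was set to 0.1 or 10, the filter was dropped or raised to 10 CPM, and values were scaled by median ratio or upper quartile. As a further one, calls also had to pass an exact binomial test of the whole reads, adjusted by Benjamini-Hochberg at 0.05. That test compares the 2 libraries and not the conditions, and with it 4352 genes were called higher and 597 lower with no recovery, and 4241 and 455 after 7 days. Members and lists were chosen with earlier results of these data known. The genes named were the 10 members, Ogt, the 5 genes nearest to Glul and, in each list, up to 4 genes averaging 10 CPM or more that differed 2-fold in 1 direction at both times, largest first, plus the gene of the list with the highest mean. Wnt2, Wnt9b, Rspo3, Wnt5a, Wnt7b, Wnt11, Lgr4, Notum, Sp5, Prodh, Hnf4a, the overlapping genes Teddm2 and Fgfr2, the zonation genes Slc16a10, Slc22a3 and Slco1b2, and the ranks of Cyp2e1 and Cyp2f2 were named outside that rule, after their values were seen. Exon lengths and overlaps came from GENCODE M21 (GRCm38), in which 13893 gene identifiers were found, and promoters from RefSeq (GRCm38.p6). No coordinates of the deposited values were used. The steps were run on simulated reads with 200 genes changed 4-fold in both directions. That setting lacks the shift of most genes between the labels, so it does not show how the scaling acts here. Python 3.11.15, numpy 2.4.6, pandas 2.3.3, scipy 1.17.1 and matplotlib 3.10.9 were used.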

Additional observations from a re-analysis of the deposited data

Results flagged for a closer look

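Oat moved in opposite directions over the recovery, by -0.30 in control and 0.66 in OGT-KO on the log2(CPM + 1) scale, with the counting intervals of both ratios clear of 1. Ogt also differed in direction, by -0.22 between OGT-KO and control with no recovery and by 0.47 after 7 days, and over the recovery by -0.21 in control and 0.48 in OGT-KO. With 1 library per group these differences were not tested, and for Ogt the value after 7 days turned to -0.20 by median-ratio scaling, while Oat kept its directions at -0.26 and 0.73.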

How the results depend on the processing

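No paired analysis was possible because each group was 1 library and the labels give no replicate numbers. No library could be left out for the same reason, so single-library and pool effects cannot be told apart from the conditions. Depth limited the genes with few reads, among them Rhbg with 29 to 63 reads per library. Counts of the 10 genes called were within 1.5 times of the reported count in 47 of 56 alternatives, the all-gene counts in 34 of 56 and the medians over the 10 genes moved little in 18 of 24. Some of these could not move, as all 10 genes passed the filter and dropping it left their counts and medians fixed. Counts with no gene called in either setting were also scored as the same. Fold changes of single genes stayed within the allowed spread in 106 of 160 and moved in 54, and none that was called changed sign. Glul and Slc1a2 kept their direction under the alternatives run.

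For OGT-KO over control with no recovery, a pseudocount of 0.1 called 1 of the 10 genes higher, with 4838 of all genes higher. A pseudocount of 10 left 1539 of all genes higher and a median over the 10 genes of -0.26, and a mean of at least 10 CPM gave 2185 and -0.37. Median-ratio scaling called 6 of the 10 genes lower, with 2233 of all genes higher, 1621 lower and a median of -1.30, and upper-quartile scaling 6, 2747, 1153 and -1.12. After 7 days, a pseudocount of 10 called 0 of the 10 genes higher and 1596 of all genes, and a mean of at least 10 CPM 2050. Median-ratio scaling called 0 of the 10 genes higher, with 2575 of all genes higher, 1247 lower and a median of -0.57. Upper-quartile scaling also called 0 of the 10 higher, with 2916 of all genes higher, 873 lower and a median of -0.42.

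For the recovery in control, a pseudocount of 0.1 gave 175 of all genes higher and 497 lower, a pseudocount of 10 gave 0 of the 10 genes higher with 12 and 21 of all genes, and a mean of at least 10 CPM gave 86 lower. In OGT-KO a pseudocount of 0.1 gave 1 of the 10 genes higher with 262 and 160 of all genes. A pseudocount of 10 gave 41 and 22, and a mean of at least 10 CPM gave 93 and 39. Median-ratio scaling gave 1 of the 10 genes higher, Lgr5, with 190 of all genes higher and 69 lower. The smaller counts with a mean of at least 10 CPM come with fewer genes tested. For the rest the cause was not tested.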
